A study of Mus musculus with 52 samples.

Results

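Olive oil and saline were the solvents in which test chemicals were given to the mice of this study, so olive oil livers and saline livers were both control livers and had received no chemical. The comparison was between 4 arrays of livers from mice given olive oil, the controls of o-aminoazotoluene (AAT), 7,12-dimethylbenzanthracene (DMBA) and dibenzo[a,l]pyrene (DBP), and 15 arrays of livers from mice given saline, the controls of ethylnitrosourea (ENU), of dimethylnitrosamine (DMN), of dipropylnitrosamine (DPN), and of ethanol and phenobarbital (EtOH and PB). These 19 arrays were taken from the 52 of the study by the solvent of the control and by sampling time, with livers taken at 4 h, 20 h, 14 days and 28 days after 1 intraperitoneal administration. All mice were male B6C3F1 mice, a hybrid of C57BL/6 and C3H, aged 9 weeks, and each array held RNA pooled from 5 livers. There was 1 olive oil array and 1 array of each saline set at each time, and the volume of solvent given is not stated in the labels. A 16th saline array, of the EtOH and PB set at 20 h, was left out because its signal for Cyp2b10, the cytochrome P450 that phenobarbital induces, was 11.48 on the log2 scale, against 6.19 in olive oil livers and 6.80 to 7.26 in the other saline livers of 20 h. All 4 olive oil arrays belonged to 1 set of the study, so the solvent and the set cannot be told apart.

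Olive oil is almost wholly triglyceride, made mostly of oleic acid. The liver takes up fatty acids from plasma and from lipoprotein remnants, then oxidises them under control of the nuclear receptor PPAR-alpha, stores them in droplets or exports them in lipoproteins built on apolipoprotein B. The liver is also the main source of hepcidin, the peptide hormone that restrains iron release into plasma, and its circadian clock follows feeding time as well as the light cycle.

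Signals are given as log2 of the scaled probe-set intensity, with a floor of 5.02, and a difference is olive oil minus saline on that scale. A probe set was called at an adjusted p under 0.05 in limma with time as a block. Since each pool gave 1 array, p-values measured only the spread between arrays. Whole-liver RNA was measured, so fewer cells of a type and less RNA per cell cannot be told apart in any value below.

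The difference between the solvents depended on how bright a probe set was. The tested probe sets were put in 5 equal bins by mean signal. In the brightest bin the median log2 difference was -0.18, and 86.8% of those probe sets were lower in olive oil livers. In the dimmest bin the median was 0.01. After quantile normalization, which gives all arrays 1 distribution of signals, the median of the brightest bin was -0.01. The log2 ratio of each array's 95th percentile to its median was 3.53 to 3.94 in olive oil arrays and 3.55 to 4.19 in saline arrays, a difference of -0.18 within times (exact permutation test within times, two-sided, p = 0.014, adjusted over 5 array measures p = 0.07, where the smallest p possible was 0.002). The saline sets differed in this ratio as well. It was 3.88 to 3.94 in the EtOH and PB set, its left-out array included, which is within the olive oil range. It reached 4.15 in the ENU set, 4.19 in the DMN set and 4.06 in the DPN set. The part of this array-wide shift in the single-gene differences of bright genes was not tested, and the difference after quantile normalization is therefore given beside bright genes. The plot of differences by signal level shows the shift.

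**Figure D1:**
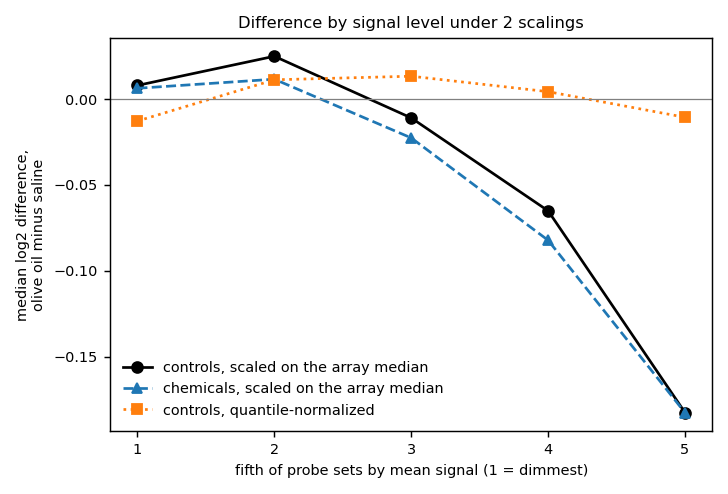
Median log2 difference between olive oil and saline livers (vertical axis, no unit) in 5 equal bins of the tested probe sets from the dimmest to the brightest (horizontal axis), with division by the array median and with quantile normalization. The line for division by the median is at -0.18 in the brightest bin, against -0.01 after quantile normalization.

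Over the 4 times together, 17 probe sets were lower in olive oil livers than in saline livers (0.0977% of the 17399 tested) and 1 was higher (0.00575%). Of these 18, 15 lay outside the saline range at all 4 times, as did 605 of all 17399 tested (3.48%), and 16 had a single gene symbol, for 15 genes. An unadjusted p under 0.05 was reached by 2386 of the tested probe sets, called ones included. Hamp2 had the smallest p. Genes of protein handling in the endoplasmic reticulum (Derl2, Prdx4, Erlin1), of fatty acid and coenzyme A metabolism (Nudt7, Cyp4v3, Mid1ip1) and of secreted proteins (Itih2, Rarres2) were among the lower ones, a grouping made after their values were seen.

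Hamp2 is the second hepcidin gene of the mouse and lies next to Hamp, which encodes hepcidin itself. The promoters of both are shown because the solvent difference was largest, among the lower called genes, for Hamp2 and smaller for its neighbour. Each run holds 250 bases before to 50 bases after the start of the gene in the RefSeq annotation of GRCm38.p6, read 5′ to 3′ on the strand of the gene. Capitals mark TTCTTGGAA, the STAT3 element described for hepcidin, and GGCGCC, the bone morphogenetic protein (BMP) response element, both searched on both strands.
Hamp2, chr7:30924132-30924431, minus strand: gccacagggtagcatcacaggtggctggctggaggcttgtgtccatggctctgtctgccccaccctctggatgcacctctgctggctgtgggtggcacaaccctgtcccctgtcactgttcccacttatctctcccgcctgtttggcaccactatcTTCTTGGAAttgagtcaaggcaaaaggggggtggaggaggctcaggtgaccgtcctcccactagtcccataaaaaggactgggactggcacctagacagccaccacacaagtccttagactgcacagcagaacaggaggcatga
Hamp, chr7:30943980-30944279, minus strand: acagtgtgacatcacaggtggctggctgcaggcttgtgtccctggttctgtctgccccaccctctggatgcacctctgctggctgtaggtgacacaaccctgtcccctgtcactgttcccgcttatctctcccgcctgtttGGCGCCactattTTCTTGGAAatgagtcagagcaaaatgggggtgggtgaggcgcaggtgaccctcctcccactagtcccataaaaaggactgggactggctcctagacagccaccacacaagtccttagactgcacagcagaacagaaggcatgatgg
The 2 windows were identical at 276 of 297 bases (92.9%) when set against each other at an offset of 3 bases. TTCTTGGAA stood at position -94 of Hamp2 and -97 of Hamp, and is found in 0.417% of 32851 promoter windows of the same length. GGCGCC stood at position -109 of Hamp and was not found in the Hamp2 window, against 11.9% of all windows. A match is a description of letters and is no measure of binding.

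Hamp2 signals were 10.29, 10.28, 9.84 and 9.81 in the olive oil livers of 4 h, 20 h, 14 days and 28 days, against a range of 10.42 to 11.57 with a median of 11.31 in the 15 saline livers. The groups did not overlap. The log2 difference was -1.17 ± 0.16 (SE, adjusted p = 0.00778), and by time it was -0.94, -1.13, -1.41 and -1.19. After quantile normalization the difference was -0.95 with an adjusted p of 0.0545. A second, dim probe set of Hamp2, with a mean signal of 5.25, had a difference of 0.04 and was not called. The Hamp2 array of saline that came nearest to olive oil was that of the EtOH and PB set at 28 days, at 10.42, and the left-out array of that set stood at 10.11, within the range of the olive oil livers. With the left-out array included, Hamp2 had a difference of -1.08 and an adjusted p of 0.101.

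The called Hamp2 probe set is of a kind that can also bind transcripts of a similar gene, so the signal of Hamp2 may hold a part of Hamp. Hamp itself stood at 12.54, 12.34, 11.80 and 12.24 in olive oil livers and at 12.39 to 13.15 in saline livers. Olive oil lay below the saline arrays of its time at all 4 times, with a difference of -0.54 ± 0.13 (adjusted p = 0.075, not called) and of -0.20 after quantile normalization. Other iron genes, chosen after their values were seen, were not called either. Slc40a1, which encodes ferroportin, the iron exporter that hepcidin degrades, was at 9.59 to 9.87 in olive oil livers and at 9.63 to 10.87 in saline livers (difference -0.55, adjusted p = 0.111, and -0.37 after quantile normalization). Tfrc, the transferrin receptor, had a difference of 0.42 (adjusted p = 0.322), of which the 4 h livers gave most: 9.23 in olive oil liver against 7.58 to 8.85 in saline livers.

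Among genes of the endoplasmic reticulum, Derl2, a channel component that passes misfolded proteins out for degradation, was at 9.42, 9.26, 8.58 and 9.44 in olive oil livers of the 4 times and at 9.17 to 10.29 in saline livers. Olive oil lay below every saline array of its own time, although the saline array of the ENU set at 14 days, at 9.17, was below 3 olive oil arrays of other times. The difference was -0.67 ± 0.12 (adjusted p = 0.0442), and -0.54 after quantile normalization. A dimmer probe set of Derl2, not called, had a difference of -0.32. Prdx4, a peroxiredoxin of the same compartment that feeds disulfide bond formation, was at 9.87 to 10.25 in olive oil livers against 10.22 to 10.83 in saline livers, below saline at each time, with a difference of -0.50 (adjusted p = 0.0442) and of -0.31 after quantile normalization. Its 2 dimmer probe sets had differences of 0.08 and -0.18, so the probe sets of Prdx4 disagreed. Erlin1, a membrane protein that targets inositol trisphosphate receptors for degradation, was at 9.07 to 9.30 against 9.49 to 10.14, without overlap, with a difference of -0.56 (adjusted p = 0.0442) and of -0.42 after quantile normalization. The left-out saline array stood at 8.91 for Erlin1, below all 4 olive oil arrays.

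The list of endoplasmic reticulum stress and amino acid response genes held no called member, with 4 of 20 higher and 16 lower, a median of -0.17 against -0.05 over all 10327 genes, and -0.02 after quantile normalization. Herpud1, an unfolded protein response target that works in the same degradation pathway as Derl2, was at 10.99, 9.66, 9.35 and 10.32 in olive oil livers of the 4 times. In saline livers it was at 10.49 to 11.34, 10.83 to 11.04, 10.31 to 11.08 and 10.33 to 11.19 at those times, so olive oil was below saline at 3 times and within it at 4 h. Its difference was -0.76 (adjusted p = 0.0789, not called), or -0.56 after quantile normalization. Hspa5, the chaperone BiP, had a difference of -0.62 (adjusted p = 0.177) and -0.34 after quantile normalization.

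Nudt7, a peroxisomal enzyme that hydrolyses coenzyme A, was at 12.01, 11.90, 11.79 and 11.99 in olive oil livers and at 12.12 to 12.81 in saline livers. The groups did not overlap, and the difference was -0.55 ± 0.10 (adjusted p = 0.0442) or -0.25 after quantile normalization. The left-out saline array stood at 11.92 for Nudt7, within the range of the olive oil livers. Cyp4v3, a fatty acid omega-hydroxylase, had a difference of -0.58, or -0.32 after quantile normalization and -0.22 against the EtOH and PB set alone. Aldh8a1, an aldehyde dehydrogenase of tryptophan breakdown, had one of -0.51, or -0.28 after quantile normalization. The second probe sets of these genes, not called, had differences of -0.11 for Nudt7, -0.25 for Cyp4v3 and -0.22 for Aldh8a1. For Cyp4v3 the left-out saline array stood at 11.43, below the lowest saline array used, at 11.53. Mid1ip1, a partner of Thrsp that promotes the polymerisation of acetyl-CoA carboxylase, was at 8.66, 9.02, 8.67 and 9.51 in olive oil livers, below each saline array of its time, with a difference of -0.68 and of -0.54 after quantile normalization. Its smallest distance was at 28 days, where the saline arrays were at 9.64 to 9.79.

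Sucnr1, the receptor for succinate, was at 6.91, 7.17, 7.50 and 8.38 in olive oil livers and at 7.32 to 9.33 in saline livers, with a difference of -0.87, or -0.81 after quantile normalization. Both groups were lowest at 4 h, and olive oil was the lowest array at each time. Jade1, a scaffold of a histone acetyltransferase complex, had a difference of -0.96, or -0.85 after quantile normalization, and olive oil was outside the saline range at 3 of the 4 times. Its other probe sets, all dim and not called, had differences of -0.27, -0.09 and -0.38. The left-out saline array stood at 8.37 for Jade1, within the olive oil range of 8.18 to 9.10. Itih2, a heavy chain of the plasma protein inter-alpha-trypsin inhibitor, was at 10.95 to 11.07 in olive oil livers against 11.19 to 11.66 in saline livers, a difference of -0.41, or -0.16 after quantile normalization. The left-out saline array stood at 11.17 for Itih2, also below all saline arrays used. Rarres2, which encodes chemerin, an adipokine that hepatocytes also secrete, was called with both of its probe sets, at -0.48 and -0.46, which were at -0.24 and -0.22 after quantile normalization. Serf1 had a difference of -0.55 (-0.54 after quantile normalization) and the uncharacterised 2310039H08Rik one of -0.42 (-0.30). The other probe sets of Serf1, all dim and not called, had differences of 0.01, -0.17 and -0.40. All genes of this paragraph and the last had an adjusted p of 0.0442 in limma, which became 0.0773 with the control set as a random block. The 2 other called probe sets carried several symbols and are not named.

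Sptlc1, a subunit of the enzyme that starts sphingolipid synthesis, was the called gene with a higher signal. Its called probe set was dim, at 5.98, 5.69, 5.78 and 5.51 in olive oil livers, against 5.02 to 5.43 in saline livers, of which 9 of 15 were at the floor. The difference was 0.63 ± 0.10 (adjusted p = 0.0442). The left-out saline array stood at 5.51 for this probe set, above all saline arrays used and level with the lowest olive oil array. The brightest probe set of Sptlc1 had a difference of -0.08, and the other probe sets had 0.06 and -0.06, so the probe sets of this gene disagreed. The plot of called genes shows the arrays of 6 of these genes.

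**Figure D2:**
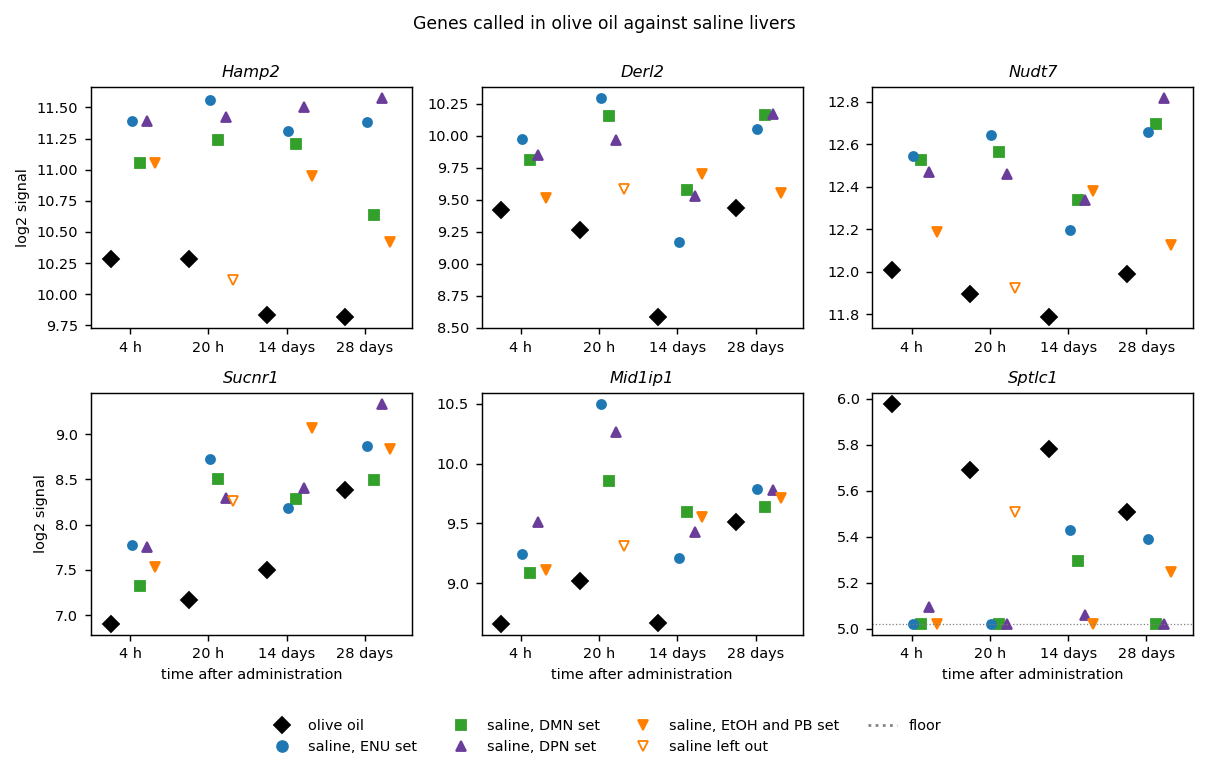
Log2 signal (vertical axes) of Hamp2, Derl2, Nudt7, Sucnr1, Mid1ip1 and the called probe set of Sptlc1 in single arrays at 4 h, 20 h, 14 days and 28 days (horizontal axes), with olive oil left of the saline sets and the left-out saline array drawn open. Olive oil lies below all saline arrays of its time that were used, and for Sptlc1 above them. The left-out array lies close to olive oil for Hamp2 and Nudt7, and above the saline arrays that were used for Sptlc1.

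These calls depended on the setting. Hamp2 was called under 15 of 21 alternatives, Sptlc1 under 7 of the 19 in which it was tested and each of the other 13 genes under 7 or 8 of 21, in 1 direction throughout, and quantile normalization left no probe set called (0 higher and 0 lower, where 1557 had an unadjusted p under 0.05). With the left-out saline array included the counts were also 0 and 0, where 2061 had an unadjusted p under 0.05, and without the saline arrays of the EtOH and PB set they were 54 and 807. Without the 4 h olive oil array, 15 probe sets were called higher and 100 lower. Without that of 20 h the counts were 0 and 0, without that of 14 days 0 and 1, and without that of 28 days 1 and 2.

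Clock genes held several of the largest differences of any list. Of 20 clock genes tested, 6 were higher in olive oil livers and 14 lower, with a median of -0.30 that hardly moved on quantile normalization (-0.27), against -0.05 and 0.00 over all genes. None was called over the 4 times, and 3 higher and 6 lower had an unadjusted p under 0.05 (15% and 30%, against 2.14% and 12.3% of all genes). The lower ones included genes that the core clock drives through E-boxes, the motif CACGTG: the repressors Nr1d1 and Nr1d2 (REV-ERB alpha and beta), Bhlhe40 (DEC1), and Dbp and Tef, which are activators of D-box genes. The higher ones included Arntl (BMAL1), the core activator, and Nfil3 (E4BP4), a repressor at D-boxes. Arntl and Nfil3 are both targets that REV-ERB proteins repress. Tef, Nfil3 and Arntl are described because of their place in the clock, and were chosen after their values were seen.

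Promoter windows of Arntl, Nfil3 and Tef, from the same annotation, are shown as examples of these 2 kinds of gene. Capitals mark TAGGTCA, an element bound by REV-ERB and ROR proteins, or its reverse complement in Nfil3, and CACGTG in Tef.
Arntl, chr7:113207261-113207560, plus strand: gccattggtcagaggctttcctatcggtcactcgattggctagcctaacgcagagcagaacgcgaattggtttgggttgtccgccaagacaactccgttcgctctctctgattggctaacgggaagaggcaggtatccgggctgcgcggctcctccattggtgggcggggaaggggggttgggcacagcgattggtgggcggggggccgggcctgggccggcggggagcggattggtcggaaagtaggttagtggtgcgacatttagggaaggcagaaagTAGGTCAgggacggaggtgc
Nfil3, chr13:52980990-52981289, minus strand: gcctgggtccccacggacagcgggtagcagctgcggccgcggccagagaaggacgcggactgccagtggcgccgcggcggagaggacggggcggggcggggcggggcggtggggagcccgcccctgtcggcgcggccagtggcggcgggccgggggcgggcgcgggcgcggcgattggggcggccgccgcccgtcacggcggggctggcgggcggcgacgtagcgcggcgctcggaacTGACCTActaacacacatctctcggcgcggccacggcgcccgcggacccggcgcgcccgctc
Tef, chr15:81802423-81802722, plus strand: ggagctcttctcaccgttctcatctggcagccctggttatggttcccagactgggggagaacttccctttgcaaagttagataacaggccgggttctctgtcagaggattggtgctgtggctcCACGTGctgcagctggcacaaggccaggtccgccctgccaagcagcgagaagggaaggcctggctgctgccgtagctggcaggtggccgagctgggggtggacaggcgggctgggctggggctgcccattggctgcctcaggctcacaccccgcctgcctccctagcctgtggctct
TAGGTCA occurs in 2.61% of the 32851 windows and CACGTG in 7.15%. The RefSeq table holds 2 starts each for Arntl and Tef. TAGGTCA was found in 1 of the windows of Arntl, at position 30, and CACGTG in both windows of Tef. CACGTG was not found in the windows of Arntl or Nfil3, nor TAGGTCA in those of Tef.

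Bhlhe40 was at 8.66 in the olive oil liver of 4 h, against 8.51 to 9.45 in saline livers of that time. In the later olive oil livers it was at 7.05, 6.02 and 7.20, against 8.41 to 9.69, 8.08 to 9.04 and 7.36 to 9.43 in saline livers of 20 h, 14 days and 28 days. Olive oil was thus within the saline range at 4 h and below it at the 3 later times. The difference over the 4 times was -1.64 ± 0.34 (adjusted p = 0.0575, not called) and was -1.64 after quantile normalization.

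Nr1d2 had a similar course. Olive oil livers stood at 9.85, 8.44, 7.51 and 7.31, and saline livers at 9.78 to 10.20 at 4 h, 9.36 to 10.13 at 20 h, 9.05 to 10.15 at 14 days and 8.08 to 10.19 at 28 days. The difference was -1.39 (adjusted p = 0.0654), or -1.31 after quantile normalization. Nr1d1 stood at 7.06, 7.07, 6.69 and 5.93 in olive oil livers against 6.63 to 9.02 in saline livers, with a difference of -1.37 (adjusted p = 0.0575), and its lowest saline array was that of the EtOH and PB set at 4 h.

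Dbp had the largest difference of the lower clock genes, and also the widest spread. It was at 9.04 in the olive oil liver of 4 h and at 5.95, 5.92 and 6.12 in the later ones. The saline arrays of the ENU and DPN sets at the 3 later times were at 9.09 to 9.65, those of the DMN set at 7.26, 7.56 and 7.01, and that of the EtOH and PB set at 9.76 at 14 days and 5.74 at 28 days. The last of these was below olive oil, and the left-out array of 20 h was at 5.89. The difference of -1.94 ± 0.61 was not called (adjusted p = 0.131). A second probe set of Dbp had a difference of -2.71 and was not called either.

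Nfil3 was at 7.69, 8.27, 7.58 and 8.14 in olive oil livers, above every saline array of its time, with saline livers at 5.69 to 8.03. The difference was 1.20 ± 0.31 (adjusted p = 0.0791, not called). Arntl was at 5.47, 8.18, 7.72 and 8.69 in olive oil livers. At 4 h it lay below the saline range of 5.69 to 6.52, and at the later times above saline ranges of 5.02 to 7.61, 5.18 to 6.96 and 5.22 to 8.32, so that its difference of 1.29 (adjusted p = 0.245) joined values of -0.48, 2.02, 1.65 and 2.00.

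The saline sets thus differed among themselves in these genes, and the clock difference was unlike in size between 2 choices of saline sets, which also differed in times. Against the EtOH and PB set alone, at 4 h, 14 days and 28 days, the differences were -1.12 for Bhlhe40, -0.96 for Nr1d1, -1.11 for Nr1d2, -1.18 for Dbp and 0.80 for Nfil3. Of the 19 clock genes tested there none was called, nor was any of the 15610 probe sets (0%, where 556 had an unadjusted p under 0.05). Against the ENU, DMN and DPN sets, 5 of 19 clock genes were called (1 higher and 4 lower), in a comparison that called 54 probe sets higher (0.314% of 17210) and 807 lower (4.69%). There the differences were -1.74 for Bhlhe40 (adjusted p = 0.00222), -1.50 for Nr1d1 (0.000463), -1.46 for Nr1d2 (0.00396), -2.08 for Dbp (0.0352) and 1.29 for Nfil3 (0.0202). These 2 comparisons share olive oil arrays. The first lacks 20 h and has fewer saline arrays, so set, times and number of arrays cannot be told apart in their difference.

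Without the arrays of 4 h, 5 probe sets were called higher (0.0293% of 17068) and 30 lower (0.176%), and the 3 repressors Bhlhe40 (-2.06, adjusted p = 0.0283), Nr1d1 (adjusted p = 0.0282) and Nr1d2 (adjusted p = 0.0336) were among them. This choice of times was made after the values were seen. No source used here states the hour of the day at which livers were taken, so sampling hour and solvent cannot be told apart. The plot of clock genes shows the arrays of each set.

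**Figure D3:**
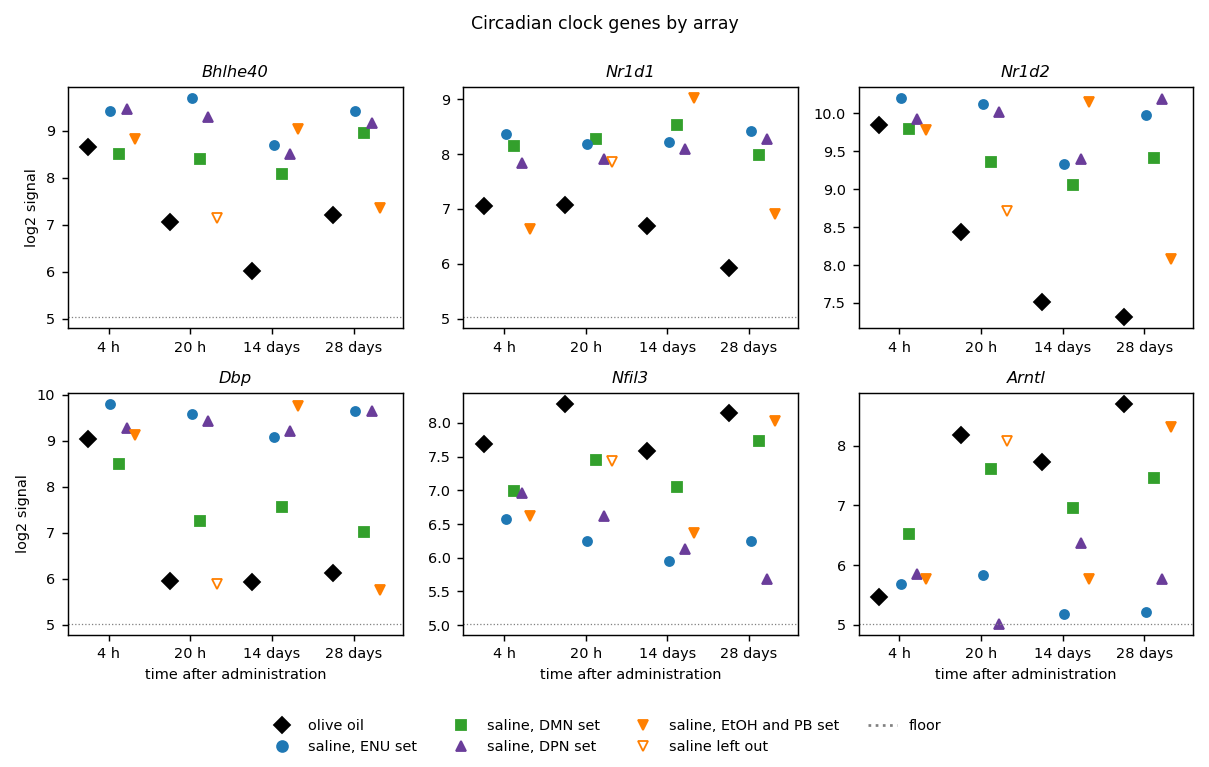
Log2 signal (vertical axes) of clock genes in single arrays at the 4 times (horizontal axes), with olive oil left of the saline sets and the left-out saline array drawn open. From 20 h on, olive oil lies low for Bhlhe40, Nr1d2 and Dbp and high for Nfil3 and Arntl, and at 28 days the EtOH and PB set is the saline set nearest to olive oil in each panel. Apart from Nr1d1, the DMN set lies between olive oil and the ENU and DPN sets from 20 h on.

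Of 26 PPAR-alpha targets and genes of fatty acid oxidation, 11 were higher and 15 lower, 3 and 5 of them at an unadjusted p under 0.05 and none called, with a median of -0.05, as over all genes. After quantile normalization 22 were higher and 4 lower, with a median of 0.09. Cyp4a14, Acot1 and Pdk4 had the largest differences of the list, and each was dim in most saline livers.

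Cyp4a14, a fatty acid omega-hydroxylase and one of the most responsive PPAR-alpha targets of the mouse liver, was at 9.81, 8.55, 7.15 and 6.78 in olive oil livers of the 4 times. In the saline livers of the ENU, DMN and DPN sets it was at 5.02 to 5.95, and in those of the EtOH and PB set at 8.34 at 4 h, 7.74 at 14 days and 6.98 at 28 days, with 7.95 in the left-out array of 20 h. Olive oil was above all saline arrays at 4 h and 20 h, and below the array of the EtOH and PB set at the 2 later times. The difference was 2.30 ± 0.56 (adjusted p = 0.074, not called). It was 2.77 against the ENU, DMN and DPN sets (adjusted p = 0.000584) and 0.23 against the EtOH and PB set.

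Pdk4, a kinase that switches pyruvate use off in fasting, was at 5.12, 6.20, 6.00 and 5.85 in olive oil livers, and at the floor in 12 of 15 saline livers. Its difference was 0.65 (adjusted p = 0.0681). Plin4, a coat protein of lipid droplets, was at 6.35, 5.93, 6.12 and 6.33 in olive oil livers against 5.02 to 6.35 in saline livers, with a difference of 0.72 (adjusted p = 0.058). Neither was called, and both were close to the floor, where differences are understated. Acot1, a cytosolic thioesterase of the same programme, had a difference of 0.79 (adjusted p = 0.294) and was at the floor in 1 olive oil liver.

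Of 15 genes of lipoprotein assembly, 2 were higher and 13 lower, 9 of them at an unadjusted p under 0.05 (60%, against 12.3% of all genes), with a median of -0.39. After quantile normalization 7 were higher and 8 lower, with a median of -0.04. Apob had a difference of -0.55 (-0.24 after quantile normalization), Apoa2 one of -0.44 (-0.05) and Apoc3 one of -0.43 (-0.06), and none was called. All of these are among the brightest signals of the liver.

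Of 19 genes of fatty acid synthesis, 6 were higher and 13 lower, 8 of them at an unadjusted p under 0.05, with a median of -0.26. After quantile normalization 8 were higher and 11 lower, with a median of -0.03. Srebf1, which encodes the transcription factor of this pathway, was at 9.59, 10.13, 9.79 and 10.42 in olive oil livers and at 9.76 to 11.45 in saline livers. It had a difference of -0.73 ± 0.18 (adjusted p = 0.074, not called), and -0.54 after quantile normalization. Thrsp, a lipogenic gene that follows carbohydrate intake, was at 12.23 in the olive oil liver of 4 h, within the saline range of 10.99 to 12.55, and at 10.07, 9.85 and 10.98 at the later times, against 11.84 to 12.75, 10.61 to 12.05 and 10.76 to 12.07. Its difference was -0.94 (adjusted p = 0.197), or -0.66 after quantile normalization. Gpam and Dgat2, the enzymes of the first and last steps of triglyceride synthesis, had differences of -0.55 and -0.45, and of -0.33 and -0.19 after quantile normalization. A dimmer probe set of Gpam had a difference of 0.03, so its probe sets disagreed, and a dimmer one of Dgat2 had -0.30.

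Of 18 genes of lipid droplets and lipid uptake, 7 were higher and 11 lower (median -0.12), and after quantile normalization 10 and 8 (median 0.01). Of 19 genes of cholesterol synthesis, 7 were higher and 12 lower (median -0.05), 1 of them at an unadjusted p under 0.05, and after quantile normalization 14 and 5 (median 0.06). Of 18 genes of bile acid synthesis and transport, 3 were higher and 15 lower, 7 at an unadjusted p under 0.05 (median -0.24), and after quantile normalization 6 and 12 (median -0.04). Slco1a4, a sinusoidal organic anion transporter, was at 7.87 to 8.71 in olive oil livers and at 8.49 to 9.27 in saline livers, a difference of -0.60, or -0.51 after quantile normalization. Fabp1, the liver fatty acid binding protein, had a difference of -0.52 that became -0.12 after quantile normalization. Cat, the peroxisomal catalase, was at 11.82 to 11.90 in olive oil livers and at 12.10 to 12.64 in saline livers, without overlap, with a difference of -0.44 (adjusted p = 0.0575) and of -0.14 after quantile normalization. A second probe set of Cat, nearly as bright, had a difference of -0.31, or -0.04 after quantile normalization, and one of 0.04 at 14 days. The plot of lipid genes gives the arrays.

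**Figure D4:**
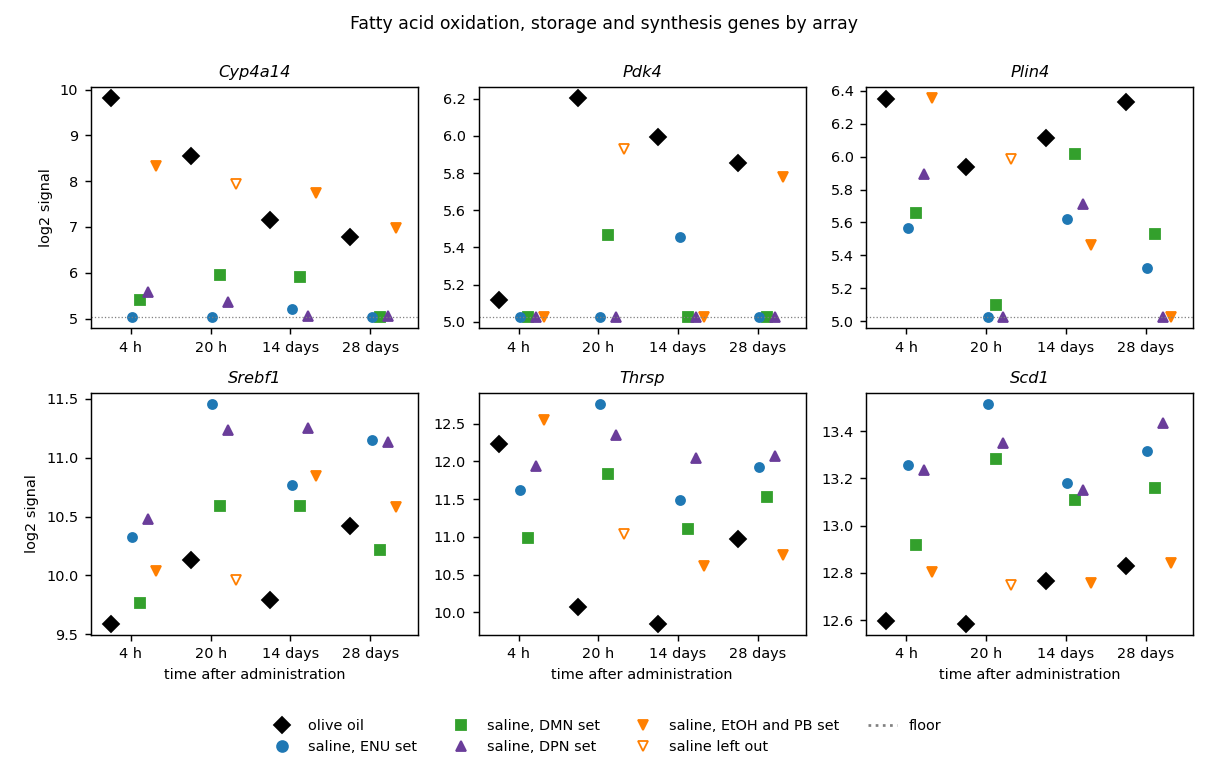
Log2 signal (vertical axes) of lipid genes in single arrays at the 4 times (horizontal axes), with olive oil left of the saline sets and the left-out saline array drawn open. Cyp4a14 is high in olive oil livers and in the EtOH and PB set of saline livers, at 6.98 to 8.34, and is at 5.02 to 5.95 in the other sets.

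None of the other pathway lists held a called member. Beside the main counts, those after quantile normalization are given, where over all genes 3972 higher and 6355 lower became 5188 and 5106. Of 19 genes induced in fasting or by glucocorticoids, 9 were higher and 10 lower (median -0.02), and 13 and 6 after quantile normalization (median 0.12). Igfbp1, an insulin-suppressed binding protein of that list, was at 8.87 to 10.45 in olive oil livers and at 7.91 to 10.46 in saline livers (difference 0.66, adjusted p = 0.461, and 0.82 after quantile normalization). Among 22 genes that the xenobiotic receptors CAR and PXR induce, 9 were higher and 13 lower (median -0.04), and 15 and 7 after quantile normalization. Cyp2b10 itself had a difference of 0.18, which turned to -0.11 with the left-out array included.

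Of 26 p53 targets 12 were higher and 14 lower (median -0.02), and 15 and 11 after quantile normalization. Cdkn1a, the cell-cycle inhibitor p21, had a difference of 0.68 (adjusted p = 0.345), with olive oil livers at 5.84 to 7.30 and saline livers at 5.02 to 7.75. Of 19 genes of replication and mitosis 7 were higher and 12 lower, with 0 at an unadjusted p under 0.05, and 10 and 9 after quantile normalization. Of 20 immediate early genes 9 were higher and 11 lower under both scalings, again with 0 at an unadjusted p under 0.05. Of 16 heat shock chaperones 5 were higher and 11 lower (8 and 8 after quantile normalization), of 18 NRF2 targets 7 and 11 (15 and 3), and of 6 dioxin receptor targets 3 and 3 (4 and 2).

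Of 19 interferon-stimulated genes 3 were higher and 16 lower (median -0.14), 3 of the lower at an unadjusted p under 0.05, and 7 and 12 after quantile normalization. Of 15 growth hormone and sex-dependent genes 3 were higher and 12 lower, 8 of the lower at an unadjusted p under 0.05 (median -0.33), and 4 and 11 after quantile normalization (median -0.06). Ghr, the growth hormone receptor, was at 11.16 to 11.71 in olive oil livers and at 11.56 to 12.37 in saline livers (difference -0.54, adjusted p = 0.058, and -0.26 after quantile normalization). Dimmer probe sets of Ghr had differences of -0.25 and -0.18, and of -0.01 and -0.03 after quantile normalization. Hsd3b5, a male-biased steroid dehydrogenase, was at 10.28, 10.55, 11.37 and 11.67 in olive oil livers of the 4 times and at 10.58 to 11.98 in saline livers (difference -0.69, adjusted p = 0.0777, and -0.44 after quantile normalization). Its differences were larger on the first day, at -1.03 and -1.28, than at 14 and 28 days, at -0.33 and -0.16, and the change between them was not called.

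The marker genes that the study proposed for telling genotoxic carcinogens apart are read against solvent controls. Of the 28 that were tested, 13 were higher and 15 lower in olive oil livers, 1 and 3 at an unadjusted p under 0.05 and none called, with a median of -0.03, and 18 and 10 after quantile normalization. The largest difference among them was that of Bhlhe40, at -1.64. Of the 28, 4 lay outside the saline range at all 4 times, as did 383 of all 10327 genes. The study chose its marker genes partly on arrays of this kind, so the list is not independent of the data.

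The arrays carried the hepatocyte markers that the tissue label calls for. Their summed log2 signal was 16.1 to 16.2 in olive oil livers and 16.3 to 16.8 in saline livers, and 16.4 to 16.5 in both after quantile normalization. All 12 were lower in olive oil livers with division by the array median, 9 of them at an unadjusted p under 0.05 and none called, and 6 of 12 after quantile normalization. The summed level of 14 Kupffer cell markers was 11.9 to 12.2 in olive oil livers and 11.8 to 12.6 in saline livers, and that of 16 sinusoidal endothelial markers 11.4 to 11.8 and 11.3 to 11.8. Of the endothelial markers 11 were higher and 5 lower (median 0.06, against -0.05 over all genes). After quantile normalization 14 were higher and 2 lower (median 0.10, against 0.00), and none was called. The 6 markers of the mesothelium, the surface that an intraperitoneal injection reaches, summed to 8.22 to 8.83 and 8.01 to 8.66, with 2 of them at the floor in most arrays. The summed levels of olive oil and saline livers also overlapped for markers of neutrophils and monocytes, stellate cells, cholangiocytes, B cells, T and NK cells, erythroid cells, pancreas and adipocytes, with medians of the differences between -0.14 and 0.02 and none called. Ighm, the heavy chain of immunoglobulin M, had a difference of -0.65 (adjusted p = 0.0653) with its brightest probe set, and its 6 dimmer ones had -0.52 to 0.29, 3 of them above 0. The part of cell composition in the gene differences was not tested.

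At single times, where 1 olive oil array stood against the saline arrays of that time and the spread was pooled over times, 1 probe set was called at 4 h (0.00575%), 7 at 20 h (0.0402%), 4 at 14 days (0.023%) and 3 at 28 days (0.0172%). Such a call rests on 1 pool of livers. At 4 h the called gene was Apln, which encodes the peptide hormone apelin, at 5.42 in olive oil liver against 7.40 to 7.98 in saline livers (difference -2.28, adjusted p = 0.0378). In later olive oil livers Apln was at 7.06 to 7.94.

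At 20 h Gas6, the ligand of the receptor tyrosine kinases Axl and Mertk, was at 9.39 in the olive oil liver against 7.62 to 7.81 in saline livers (difference 1.66, adjusted p = 0.00135). At the other times Gas6 was at 7.78 to 7.98 in olive oil livers. Pidd1, a p53-induced adaptor of caspase activation, had a difference of 1.60 (adjusted p = 0.00377) and Exosc8, a subunit of the RNA exosome, one of 1.39 (adjusted p = 0.00605), both from dim signals. Sparc, a matrix protein of stellate and endothelial cells, had a difference of -1.36 and Wfdc1, a secreted protein with a protease inhibitor domain, one of -1.91 (adjusted p = 0.0499 each).

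Several acute-phase and metal-binding genes stood far from saline in the same 20 h olive oil liver without being called. Mt2, a metallothionein, which binds zinc and copper, was at 11.89 in the olive oil liver and at 8.99 to 9.54 in saline livers, a difference of 2.56, and Mt1 had one of 2.18. Lcn2, the iron-siderophore binding protein of the acute phase, was at 12.05 against 5.90 to 10.90, and Orm2, an acute-phase plasma glycoprotein, at 11.28 against 6.66 to 9.86. Lcn2 also spread widely at 4 h, with olive oil at 9.42 and saline at 5.82 to 11.91. Over the 4 times, 17 of 34 acute-phase genes and chemokines were higher and 17 lower, with a median of -0.04 and none called, and 26 were higher and 8 lower after quantile normalization, with a median of 0.11.

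At 14 days Man1a2, a mannosidase of the Golgi, was at the floor in the olive oil liver, against 6.91 to 7.27 in saline livers (difference -2.08, adjusted p = 0.00137). At the other times its difference was 0.10 to 0.14. A probe set of similar brightness had 0.29 at 14 days, so the probe sets of Man1a2 disagreed, and with olive oil at the floor the size of the called difference is a bound. Slco1a5, an organic anion transporter, had a difference of 1.33 and Rftn2, a lipid raft protein, one of 1.39. Over the 4 times, Slco1a5 was at the floor in 2 of 4 olive oil and 11 of 15 saline arrays, and Rftn2 in 3 and 12. Values at the floor narrow the spread on which such a call rests. The olive oil liver was at the floor for Wfdc1 at 20 h and for the called probe set of Nap1l1 at 28 days (below). The sizes of those differences are bounds too. At 28 days Ndrg1, a stress-responsive gene, was at 6.58 in the olive oil liver and at the floor in all 4 saline livers (difference 1.56, adjusted p = 0.00189), and its brightest probe set had a difference of 0.95. Nap1l1, a histone chaperone, had a difference of -2.44 (adjusted p = 0.00565) with the called probe set and of 0.31 with its brightest, so its probe sets disagreed.

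The olive oil difference of the first day (4 h and 20 h) was compared with that of the later times (14 and 28 days) in 1 test, which called 2 probe sets (0.0115%). A probe set without a symbol in the annotation, called at 14 and 28 days as well, had a change of -2.22 (adjusted p = 0.00228), and at 28 days its signal was 8.11 in the olive oil liver against 5.02 to 5.50 in saline livers. A probe set with several symbols, called at 20 h as well, had a change of -2.18 (adjusted p = 0.00639).

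The chemicals given in each solvent allowed the same contrast in other arrays: 12 arrays of livers from mice given AAT, DMBA or DBP, against 20 of livers from mice given ENU, DMN, DPN, ethanol or phenobarbital, with the chemical as a random block and time as a fixed one. No array is shared with the solvent comparison, but the arrays come from the same sets, and the solvent cannot be told apart from the chemicals, which the sample descriptions call aromatic mutagens on the olive oil side. There, 146 probe sets were higher (0.816% of 17897) and 1642 lower (9.17%). Of the 18 probe sets called between the solvents, 17 had the same direction and 16 were called in it. Under quantile normalization 8 of the 18 were, where 85 of all 17873 probe sets were called higher and 122 lower. Against ethanol and phenobarbital only 7 were, where 22 of all 17445 were called higher and 257 lower. Of the 17 called lower between the solvents, 15 lay in the brightest bin, whose median was -0.18 in both comparisons, so their shared direction is not independent of that shift.

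Hamp2 averaged 10.08 ± 0.20 in livers of the 3 chemicals given in olive oil and 10.84 ± 0.11 in those of the 5 given in saline (SD over chemicals), a difference of -0.76 (adjusted p = 9.59e-05). Sucnr1 averaged 7.27 ± 0.19 and 8.53 ± 0.15, a difference of -1.26 (adjusted p = 1.49e-05), which was larger than between the solvents alone. Srebf1, not called between the solvents, had a difference of -0.82 (adjusted p = 0.000277). Sptlc1 had one of -0.04 (adjusted p = 0.886).

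Of the clock genes, Nfil3 had a difference of 1.08 (adjusted p = 0.0115), Dbp of -1.56 (adjusted p = 0.00725), Nr1d2 of -0.77 (adjusted p = 0.0143) and Tef of -0.66 (adjusted p = 0.0317) among the chemicals. Bhlhe40 had one of -0.50 (adjusted p = 0.231) and Nr1d1 one of -0.51 (adjusted p = 0.249). These values also depended on the saline side. Against ethanol and phenobarbital only, none of the 6 was called, with 0.56 for Nfil3 (adjusted p = 0.286), -0.82 for Dbp (0.21), -0.33 for Nr1d2 (0.455), -0.27 for Tef (0.456), -0.03 for Bhlhe40 and -0.05 for Nr1d1. Against ENU, DMN and DPN only, all 6 were called, Bhlhe40 at -0.81 (adjusted p = 0.0111) and Nr1d1 at -0.82 (adjusted p = 0.0277) among them. The 2 comparisons also differed in calls over all probe sets. Against ethanol and phenobarbital 22 were higher and 257 lower of 17445, and against ENU, DMN and DPN 511 and 2526 of 17576. Cyp4a14 averaged 8.09 ± 0.87 in livers of chemicals given in olive oil and 7.40 ± 1.26 in the others, and the difference of 0.69 was not called (adjusted p = 0.463). It was 1.32 against ENU, DMN and DPN and -0.25 against ethanol and phenobarbital, neither of them called. Of the genes that stood apart at 20 h, Gas6 (0.49, adjusted p = 0.00456), Lcn2 (2.13, adjusted p = 0.00878), Mt2 (1.24, adjusted p = 0.0223) and Orm2 (1.19, adjusted p = 0.0264) were higher over the 4 times in livers of chemicals given in olive oil. Against ethanol and phenobarbital only, their adjusted p was 0.0888, 0.0903, 0.0926 and 0.0912. Other genes named for 20 h were not called against all chemicals given in saline: Mt1 (0.88), Pidd1 (0.52), Exosc8 (-0.08), Sparc (-0.18) and Wfdc1 (-0.35). Across the 17277 probe sets tested in both comparisons the differences had a Pearson r of 0.61, or 0.55 after quantile normalization, as a description across probe sets, which are not independent and share the signal-level shift: the brightest bin had a median of -0.18 among the chemicals as well.

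**Figure D5:**
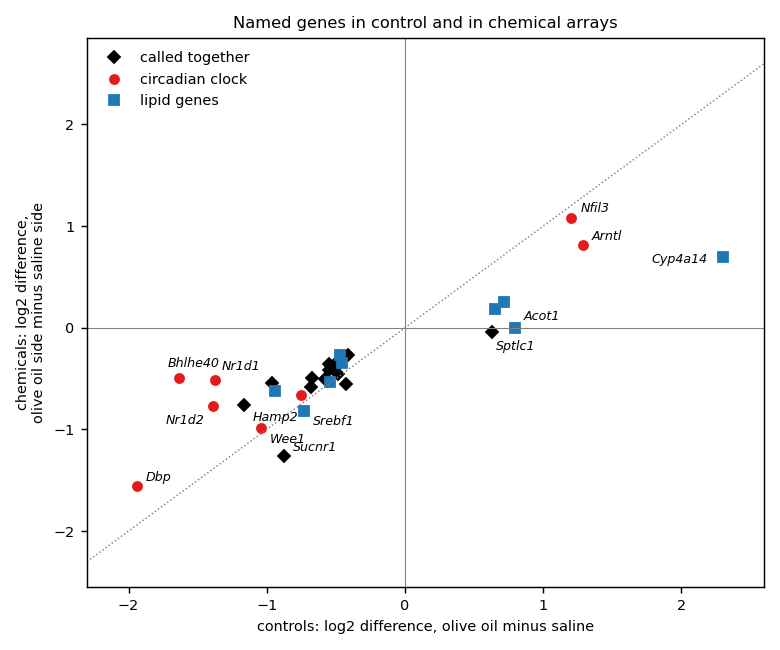
Log2 difference between livers of chemicals given in olive oil and livers of chemicals given in saline (vertical axis) against the log2 difference between olive oil and saline controls (horizontal axis) for the named genes. Hamp2 lies at -1.17 and -0.76, Sucnr1 at -0.87 and -1.26, and Cyp4a14 at 2.30 and 0.69, controls first.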

How the data were processed

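The authors pooled liver RNA of 5 mice for each array. The deposited table gives linear Affymetrix probe-set intensity for 22690 probe sets, and its software and scaling are not stated in any source at hand. Without the 64 control probe sets, arrays were scaled to a common median, low signals were raised to the 30th percentile (32.5), and log2 was taken. Array medians ran from 68.2 to 94.1 in olive oil and from 40.5 to 205 in saline arrays before scaling, and the small number of arrays limits precision. The 17399 probe sets that exceeded the floor in 4 or more of the 19 arrays were fitted in limma 3.58.1, R 4.3.3 (lmFit, eBayes with trend), with time as a fixed block (14 residual degrees of freedom), or with a solvent term for each time (11). Chemicals were fitted with a random chemical block. P-values were adjusted by Benjamini-Hochberg over all probe sets, and exact permutation tests exchanged solvent labels within times. The fits were tested on simulated data. The platform annotation gave 1 symbol for 20380 of 22626 probe sets, several for 691 and none for 1555. A gene is its brightest tested probe set, and where another was called, both are given. Sequences are those of RefSeq (GRCm38.p6).

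Genes named were the 10 called genes with the largest difference each way and 1 sign at every time (in a direction with fewer than 5, the 10 of smallest p), the 4 largest differences of each list, the 5 largest each way at each time outside the saline range, the 10 of smallest p for first day minus later, and Cyp2b10. Part of these are printed. There were 20 pathway and 12 cell type lists. The comparison, the lists and the array left out were chosen with earlier results of these data known. Alternatives changed the scaling, floor, filter, block, variance model and arrays. Plots were made with matplotlib 3.10.9 (Python 3.11.15).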

Additional observations from a re-analysis of the deposited data

Results flagged for a closer look

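In 27 of 318 groups of 4 values, 1 value lay far from the other 3, measured by its gap over the range of the group. Chance alone flags about 1 group in 20. That rate cannot be set against the count, because some genes were named since 1 time or array stood apart, and some values are at the floor. At 28 days the olive oil minus saline difference stood apart for Erlin1 at -0.78 (other times -0.50 to -0.46) and Nap1l1 at -2.44 (other times -0.31 to -0.01). At 4 h the olive oil minus saline difference stood apart for Tef at 0.27 (other times -1.18 to -0.98), Arntl at -0.48 (other times 1.65 to 2.02) and Tfrc at 1.09 (other times 0.09 to 0.26). At 20 h the olive oil minus saline difference stood apart for Gas6 at 1.66 (other times 0.00 to 0.16) and Wfdc1 at -1.91 (other times 0.08 to 0.14). At 14 days the olive oil minus saline difference stood apart for Man1a2 at -2.08 (other times 0.10 to 0.14), Rftn2 at 1.39 (other times -0.03 to 0.00) and Slco1a5 at 1.33 (other times -0.13 to 0.11). The log2 signal of the saline array of the EtOH and PB set stood apart from the saline arrays of the same time for Itih2 at 28 days (11.19 against 11.47 to 11.50), Cyp4a14 at 4 h (8.34 against 5.02 to 5.59), Cyp4a14 at 28 days (6.98 against 5.02 to 5.06), Plin4 at 20 h (5.99 against 5.02 to 5.10), Scd1 at 14 days (12.76 against 13.11 to 13.18), Apoa2 at 20 h (13.30 against 13.87 to 13.97), Apoa2 at 28 days (13.31 against 13.96 to 14.06), Cat at 20 h (11.95 against 12.29 to 12.35), Apln at 14 days (7.13 against 8.03 to 8.20), Pidd1 at 20 h (6.25 against 5.02 to 5.17) and Cyp2b10 at 20 h (11.48 against 6.80 to 7.26). The log2 signal of the saline array of the ENU set stood apart from the saline arrays of the same time for Itih2 at 14 days (11.21 against 11.26 to 11.27) and Nap1l1 at 20 h (7.09 against 6.90 to 6.93). The log2 signal of the saline array of the DMN set stood apart from the saline arrays of the same time for Serf1 at 14 days (7.35 against 7.12 to 7.15), Wee1 at 14 days (6.04 against 7.71 to 7.94), Fabp1 at 14 days (13.42 against 13.46 to 13.47) and Slco1a4 at 20 h (8.49 against 9.10 to 9.12). 

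The olive oil difference of the first day was unlike that of the later times for a probe set without a symbol (a change of -2.22) and for a probe set with several symbols (a change of -2.18), by the test of that change. The saline array of the EtOH and PB set at 20 h, which was left out of the comparison, had a Cyp2b10 signal of 11.48, against 6.19 to 7.26 in the other control arrays of that time.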

How the results depend on the processing

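The number of probe sets called over the 4 times (1 higher and 17 lower) depended on the setting, and the cause was not tested. It was 0 and 0 with quantile normalization, 3 and 20 with scaling to the 75th percentile, 0 and 21 with no floor, 4 and 34 with a floor at the 40th percentile, 1 and 4 with no filter, 6 and 172 when every array had to exceed the floor, 0 and 0 with the left-out saline array included, 1 and 1 with no time block, 0 and 1 with the control set as a random block (consensus correlation 0.0338), 0 and 1 with no variance trend, and 50 and 516 with array quality weights. Leaving out 1 olive oil array gave 0 to 15 higher (15 without that of 4 h) and 0 to 100 lower, and leaving out 1 saline set gave 0 to 54 higher and 0 to 807 lower, the highest without the EtOH and PB set. Of alternatives chosen after seeing the data, the EtOH and PB set alone gave 0 and 0, and the arrays later than 4 h gave 5 and 30. Of the 18 called probe sets, 16 were also called with the 75th percentile, 17 with no floor and 18 without the EtOH and PB set. At 4 h, 20 h, 14 days and 28 days the 1, 7, 4 and 3 calls became 0, 6, 11 and 3 with quantile normalization, and 0, 3, 3 and 1 with no floor. When every array had to exceed the floor, 14 and 28 days had 0 calls, and with the left-out array included 14 days had 8. First day minus later had 1 call with no floor. For the chemicals, 146 higher and 1642 lower became 85 and 122 with quantile normalization, 511 and 2526 against ENU, DMN and DPN only, and 22 and 257 against EtOH and PB only. Of the values of 68 genes under 21 settings, 16 changed sign and 1371 did not. None of the 16 was of a gene called over the 4 times together, but some were of genes called at a single time. Mt1, at -0.13, was at 0.10 with quantile normalization and ranged from -0.85 to 0.49 when 1 array or set was left out (0.13 and 0.49 without the olive oil array of 14 or 28 days, 0.06 without the DPN set). Cyp2b10, at 0.18, was at -0.11 with the left-out array, at -0.0502 without all arrays of 4 h and at -0.38 against the EtOH and PB set, and ranged from -0.0502 to 0.50. Without the 20 h olive oil array Mt2 was at -0.11 (range -0.11 to 1.04), Pidd1 at -0.0104 (to 0.73), Sparc at 0.0151 (from -0.50) and Wfdc1 at 0.10 (from -0.55), and without that of 14 days Man1a2 was at 0.12 (from -0.63) and Slco1a5 at -0.00495 (to 0.48). Against the EtOH and PB set alone, Sparc and Wfdc1 were both at 0.11. No paired analysis was possible because the labels give the arrays no replicate numbers; sampling time, which they do give, is the block of the fits.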
